A study of Mus musculus with 2 samples.

Results

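FoxO proteins are forkhead transcription factors that switch on genes of fasting, stress resistance and growth arrest. When insulin or growth factors activate the kinase Akt, FoxO proteins are phosphorylated, bound by 14-3-3 proteins and kept out of the nucleus, and they return when the signal fades. Mammals have the members Foxo1, Foxo3, Foxo4 and Foxo6, which share the DNA-binding forkhead domain. In AgRP neurons, which release agouti-related peptide in the hypothalamus and promote food intake, FoxO1 is known as a link between insulin signalling and peptide gene expression.

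The values of the 4 FoxO genes were taken from 46 probe sets, the 46 among 1235936 on the array whose single gene symbol was Foxo1, Foxo3, Foxo4 or Foxo6. The probe sets were chosen by symbol and by no measured value, but the 4 genes were named with earlier results of these data known. Foxo1 had 9 probe sets, Foxo3 and Foxo4 13 each, and Foxo6 11. A probe set is a small group of probes for 1 stretch of a transcript, and its brightness depends on the probes as well as on the transcript, so each was read only against itself on the other array.

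There was 1 array labelled FoxO1 KO and 1 labelled FoxO1 heterozygous KO, each of total RNA from hypothalamic neurons expressing agouti-related peptide, collected by cell sorting. The comparison asks which transcripts depend on FoxO1 in these cells. The heterozygous array stands as the control, and since that genotype also carries a knocked-out allele, no array stood for cells with both Foxo1 alleles unaltered. Both came from mice of mixed background, and the study used littermates matched for age and sex. The labels give neither the age of the mice, nor what drove the deletion, nor whether it was restricted to AgRP neurons, nor how many mice each array stands for. With 1 array per genotype there is no replicate check and no p-value. All differences below are FoxO1 KO minus FoxO1 heterozygous KO on the log2 scale, and an SD beside one is over the probe sets of that gene, which measures disagreement among probe sets and not the spread between mice.

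Probe sets were used for gene values where their mean over the 2 arrays reached a floor on brightness of 5.86, the median over the whole array. A gene with at least 3 such probe sets was evaluated, its level being the median of their values and its difference the median of their differences. It was called 2-fold lower or higher where the difference was at least 1 in size and at least 75% of those probe sets went that way.

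The sorted cells were checked against marker genes. The 12 genes for AgRP neurons had a mean level of 9.52 in KO and 9.42 in heterozygous cells. Their levels ran from 7.36 to 12.4 in KO and from 7.68 to 12.3 in heterozygous cells. None was 2-fold different, beside 1.12% of all evaluated genes lower and 1.13% higher. Above 0 were 8 of the 12 and below 0 were 4, beside 65.2% of all evaluated genes below 0. The AgRP markers had a median difference of 0.14, against -0.11 over all evaluated genes, and a range from -0.60 to 0.52. Markers of oligodendrocytes and their precursors, glial cells that can accompany sorted neurons, were not alike on the 2 arrays. Their mean level over 13 evaluated genes was 7.23 in KO and 8.56 in heterozygous cells. All 13 were below 0, beside 65.2% of all 16639 evaluated genes, and 7 were at least 2-fold lower, beside 1.12% (median difference -1.11). The lowest level among them was 6.26 in KO and 7.54 in heterozygous cells. A floor on the mean lets in probe sets that are dim in KO, and the marker counts were not repeated with the floor on each array. The 7 evaluated vascular markers were also all below 0, with a median of -0.33 and mean levels of 6.73 and 7.39, while astrocyte markers had a median of -0.16 over 8 genes and microglia markers -0.12 over 6. The part of these shifts in the FoxO values was not tested, and with bulk RNA, fewer cells of a type and less RNA per cell cannot be told apart.

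For Foxo1 and Foxo3, the members with probe sets at or above the floor that were at least 2-fold different, the RefSeq promoter sequence is shown, as the 250 bases before the transcript start in build GRCm38.p6. The Foxo1 stretch lies at chr3:52268087-52268336 on the plus strand and the Foxo3 stretch at chr10:42276696-42276945 on the minus strand, each printed 5′ to 3′ in the direction of the gene. Capitals mark GC boxes (GGGCGG) and boxes of the letters CCAAT, each searched on both strands, so that a box on the other strand appears as its reverse complement; no GC box overlapped a CCAAT box.
Foxo1: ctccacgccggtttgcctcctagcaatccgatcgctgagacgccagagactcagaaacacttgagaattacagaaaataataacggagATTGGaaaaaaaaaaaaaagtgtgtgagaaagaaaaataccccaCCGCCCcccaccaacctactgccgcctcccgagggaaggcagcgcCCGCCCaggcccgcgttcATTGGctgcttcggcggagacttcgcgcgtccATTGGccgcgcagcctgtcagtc
Foxo3: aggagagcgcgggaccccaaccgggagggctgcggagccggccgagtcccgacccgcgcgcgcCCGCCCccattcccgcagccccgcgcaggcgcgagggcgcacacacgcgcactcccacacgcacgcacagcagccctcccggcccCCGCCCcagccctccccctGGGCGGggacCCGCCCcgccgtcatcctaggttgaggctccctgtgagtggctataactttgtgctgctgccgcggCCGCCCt

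These stretches differ in their letters. The Foxo1 stretch held 2 GC boxes and 3 CCAAT boxes, and the Foxo3 stretch 5 GC boxes and 0 CCAAT boxes. A GC box was found in 32.7% and a CCAAT box in 33.8% of 32851 mouse promoter stretches of the same length. The Foxo1 stretch was 56.0% G and C with 20 CpG dinucleotides and the Foxo3 stretch 76.4% with 31, against medians of 52.4% and 6 over all stretches. The FoxO binding consensus GTAAACA, searched on both strands, was in neither stretch and in 3.17% of all, and the core of the insulin response element, CAAAACA, searched in the same way, was in neither and in 5.56% of all. A match or its lack describes only these letters in these windows.

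Foxo1, the targeted gene and best known for driving glucose production in the liver when insulin is low, was lower on the KO array in 8 of its 9 probe sets. Of all probe sets with 1 symbol, 56.2% were lower. The brightest Foxo1 probe set, 4987758, stood at 9.79 in KO and 11.1 in heterozygous cells, and probe set 4539449 at 8.25 against 9.81. Of the 9 Foxo1 probe sets, these 2 had at least a 2-fold difference, at 2.45-fold and 2.95-fold lower. A 2-fold lower value was seen in 11.0% of all 215976 probe sets with 1 symbol at or above the floor.

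The other Foxo1 probe sets differed by less than 2-fold. Probe set 5491261 stood at 7.25 in KO and 7.97 in heterozygous cells, 4966966 at 5.80 against 6.43, and 5220900 differed by -0.33. Probe set 4983822 stood at 6.11 against 6.42, 5331475 at 6.13 against 6.32, and 5081625 at 8.67 against 8.77. Only the dimmest, 4426656, ran the other way, at 5.75 against 4.79, and it was under the floor. On the KO array alone, 7 of the 9 Foxo1 probe sets were at or above the floor. The labels do not say which part of the gene was deleted, and a probe set beyond that part is no check of the genotype.

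Summarised by the median over its 8 probe sets at or above the floor, Foxo1 had a difference of -0.48 (SD 0.53), a 1.40-fold lower value, with levels of 7.46 in KO and 7.98 in heterozygous cells. Foxo1 did not meet the 2-fold rule, which was met by 1.12% of 16639 evaluated genes in the lower direction and 1.13% in the higher. All 8 of the summarised Foxo1 probe sets were lower, which was also the case for 4.27% of the 1055 genes with that number of probe sets. Probe set 4966966 was under the floor on the KO array and passed through the heterozygous one, so its direction followed from the filter. With the floor on each array, 7 of 7 Foxo1 probe sets were lower. Of all evaluated genes, 1639, or 9.85%, had a difference as low as that of Foxo1 or lower.

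**Figure D1:**
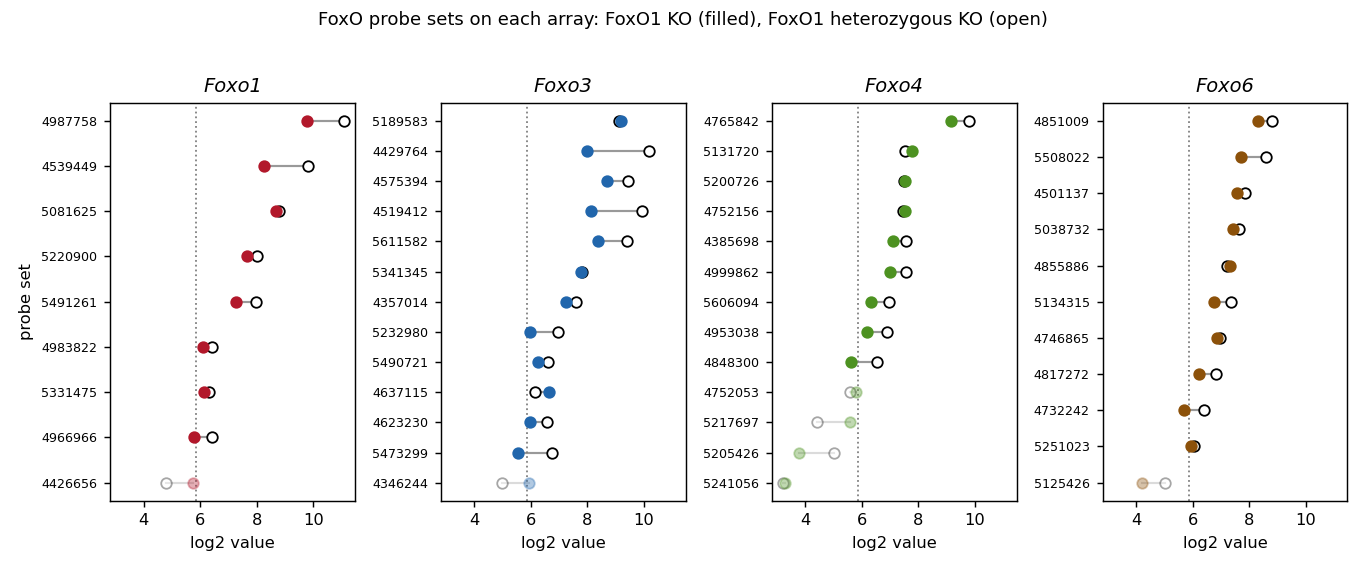
Log2 value of each FoxO probe set (rows, by probe set number, brightest at the top) on the FoxO1 KO array (filled) and the FoxO1 heterozygous KO array (open), with the floor of 5.86 as a dotted line and probe sets under it drawn faintly. In Foxo1 the widest gaps are in probe sets 4539449 and 4987758, and in Foxo3 in 4429764 and 4519412, while no Foxo6 gap reaches 2-fold.

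Foxo3, the paralog best known for stress resistance and cell survival control, had the probe sets with the largest differences of the family. Probe set 4429764 stood at 7.99 in KO and 10.2 in heterozygous cells, a 4.53-fold lower value. Probe set 4519412 stood at 8.12 against 9.94, which was 3.54-fold lower. Each is a wider gap than that of any Foxo1 probe set, in a gene that the labels do not name as altered.

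The rest of Foxo3 was mixed. Probe set 5611582 stood at 8.38 in KO and 9.41 in heterozygous cells, and 5473299 at 5.55 against 6.73. So 4 of 12 probe sets at or above the floor were at least 2-fold lower, beside 11.0% of all such probe sets. Probe set 5473299 was under the floor on the KO array and passed through the heterozygous one, and among the 11 at or above the floor on each array 3 were 2-fold lower. Probe set 5189583 stood at 9.19 against 9.11, and 5341345 at 7.76 against 7.81. Of the remaining 6, the lowest was 5232980 at 5.97 against 6.97, and 4637115 was the 1 that was higher in KO (6.64 against 6.14). The probe set under the floor, 4346244, stood at 5.92 against 4.96, a shift of 0.96 upwards like that of the dim Foxo1 probe set.

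The median over the 12 Foxo3 probe sets was -0.68 (SD 0.78), or 1.60-fold lower. Of these, 10 of 12 were lower, beside 57.4% of all probe sets at or above the floor. With the floor on each array 9 of 11 were, beside 57.7%. The gene levels were 7.50 in KO and 7.69 in heterozygous cells, a smaller gap than the median difference because the medians were taken separately. A difference this low or lower was found in 693 evaluated genes, or 4.16%. Foxo3 did not meet the 2-fold rule, and it was the 1 member that met a 1.5-fold rule, which 4.90% of evaluated genes met in the lower direction.

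Foxo4, a smaller member of the group encoded on the X chromosome, split by brightness. Its 5 probe sets between the floor and the 75th percentile of brightness (7.37) were all lower on the KO array, from -0.94 in 4848300 (5.61 against 6.55) to -0.48 in 4385698 (7.09 against 7.57). Of the 4 brighter ones, 3 were slightly higher, at 0.07, 0.04 and 0.25. The fourth and brightest, 4765842, was lower at 9.16 against 9.78. The median over these 9 was -0.58 (SD 0.41, 6 of 9 lower), but over the 4 brighter ones alone it was 0.06. Its direction therefore depends on which probe sets are read. Probe set 4848300 was under the floor on the KO array and passed through the heterozygous one, so its direction followed from the filter. Lower were 6 of 9 Foxo4 probe sets with the floor on the mean, beside 57.4% of all probe sets. With the floor on each array 5 of 8 were lower, beside 57.7%.

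A further 4 Foxo4 probe sets were under the floor and pointed in both directions. They stood at 3.30 against 3.21, 3.78 against 5.01, 5.57 against 4.43 and 5.80 against 5.59 (KO and heterozygous array). Foxo4 had gene levels of 7.09 in KO and 7.50 in heterozygous cells, and 6.44% of evaluated genes were as low or lower.

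Foxo6, a member expressed mainly in the brain that stays nuclear more than its relatives, was lower in most of its probe sets by less than 2-fold. Its median was -0.39 (SD 0.32 over 10 probe sets), with levels of 7.11 in KO and 7.28 in heterozygous cells. The lowest was 5508022 at 7.72 against 8.59, and the brightest, 4851009, stood at 8.30 against 8.80. Probe set 4855886 was higher at 7.34 against 7.21. So 9 of 10 were lower, beside 57.4% of all probe sets at or above the floor. None reached 2-fold, beside 11.0% of all lower and 9.24% higher. Probe set 4732242 (5.70 against 6.39) was under the floor on the KO array and passed through the heterozygous one, so its direction followed from the filter. With the floor on each array 8 of 9 were lower, beside 57.7%. The probe set with a mean under the floor, 5125426, was lower too, at 4.21 against 5.04. Of all evaluated genes 14.9% were as low as Foxo6 or lower.

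Across the family, 35 of 46 probe sets were lower on the KO array, beside 56.2% of all 318760 probe sets with 1 symbol. Of 39 at or above the floor 33 were lower, beside 57.4% of all. A floor on the mean lets in probe sets that are dim on 1 array, and 4 of these 39 were under it in KO and 0 in heterozygous cells. Among the 35 at or above the floor on each array, 29 were lower, beside 57.7%. At least 2-fold lower were 6 of the 39, or 15.4%, which is near the 11.0% of all probe sets (5 of the 35 with the floor on each array), and 0 of 39 were at least 2-fold higher, beside 9.24%. Probe sets of 1 gene share its transcripts and are not replicates.

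The 2-fold differences were found mostly in bright probe sets. At or above the 75th percentile of brightness, 5 of 20 family probe sets were at least 2-fold lower, beside 10.2% of all such probe sets, and all 5 belonged to Foxo1 and Foxo3. Between the floor and that percentile, 1 of 19 was, beside 12.2%, and that 1 was Foxo3 probe set 5473299, under the floor on the KO array. Lower by any amount were 16 of the 20, beside 58.1%, and 17 of the 19, beside 56.4%. The correlation (Pearson) of difference with mean level was -0.33 over the 39 probe sets, -0.62 over the 8 of Foxo1, -0.36 over the 12 of Foxo3, -0.15 over the 10 of Foxo6 and 0.31 over the 9 of Foxo4. These describe probe sets of the same 2 arrays, and over all 215976 probe sets the correlation was -0.01.

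**Figure D2:**
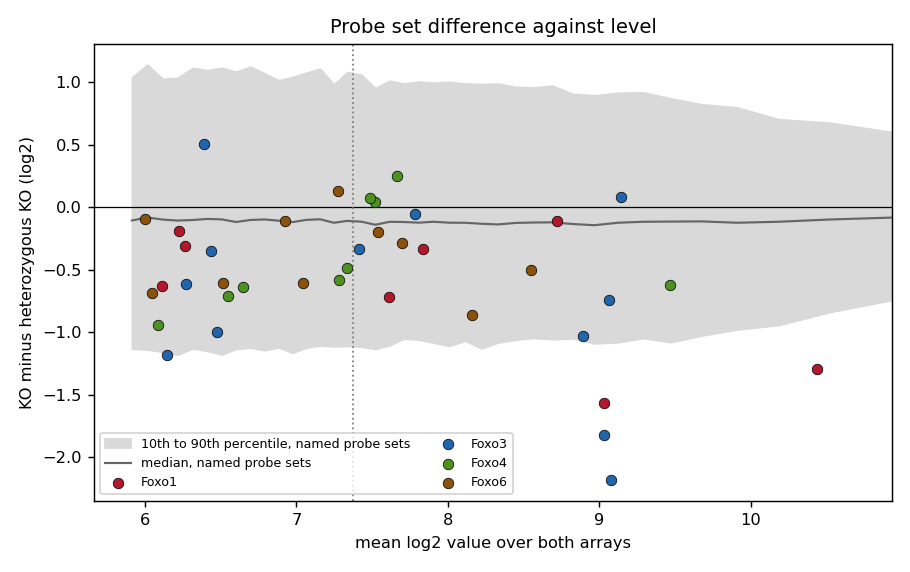
Difference (KO minus heterozygous KO, log2) of the 39 FoxO probe sets at or above the floor against their mean log2 value, with the median and the 10th to 90th percentile of all named probe sets in grey and the 75th percentile of brightness as a dotted line. Probe sets of Foxo1 and Foxo3 at mean levels of 9 and above reach the lowest values, down to -2.18, while those of Foxo6 stay between -0.86 and 0.13.

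All 4 FoxO genes had a difference below 0, as did 65.2% of evaluated genes, whose median was -0.11. Relative to that median the members stood at -0.37 for Foxo1, -0.57 for Foxo3, -0.47 for Foxo4 and -0.28 for Foxo6. The SDs over probe sets, from 0.32 to 0.78, exceed the gaps between the genes, so no order among the 4 can be read. The median SD over all evaluated genes was 0.68.

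The other forkhead genes, the closest relatives by DNA-binding domain, had a median close to that of all genes. Of 37 such genes 32 were evaluated, and their median was -0.10. Below 0 were 26, beside 65.2% of all genes, below the median of all genes 15, and none was 2-fold different. Foxj3 was lowest at -0.49 (SD 0.98, 17 of 23 probe sets lower) and Foxm1, a regulator of cell division, highest at 0.49 (SD 0.81, 1 of 4 lower). Of these 32 genes, 0 were as low as Foxo3 or Foxo4, 2 as low as Foxo1 and 3 as low as Foxo6. With 1 array per genotype this gap was not tested.

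The steps from the insulin receptor to Akt were read next, since they set the position of FoxO proteins in the cell. Of 17 genes listed, 15 were evaluated. Of these, 12 were below 0, beside 65.2% of all evaluated genes, and 0 met the 2-fold rule, beside 1.12% lower and 1.13% higher. Their median was -0.24. The upstream end was lowest: the insulin receptor Insr stood at -0.70 (SD 1.25, 21 of 28 probe sets lower), the receptor of insulin-like growth factor Igf1r at -0.65 (SD 1.09, 18 of 23) and the receptor adaptor Irs2 at -0.64 (SD 0.86, 3 of 4). These 3 met the 1.5-fold rule, beside 4.90% of all evaluated genes in that direction. The oligodendrocyte lineage markers shifted the same way (median -1.11), and their part in these values was not tested. The kinases that act on FoxO were nearer to the median of all genes, with Akt1 at -0.18 and Akt2 at -0.30. Mlst8, a subunit of the complex that activates Akt, was highest at 0.23 (SD 0.57, 2 of 7 lower).

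Of 54 genes for proteins that modify, move or assist FoxO (the Akt genes are in this list too), 48 were evaluated, with a median of -0.11, which is that of all genes. Of these, 29 were below 0 and 19 above, near the 65.2% of all genes below 0. The 1 member that met the 2-fold rule, which 1.12% of all genes met in that direction, was Sirt2, a deacetylase that acts on FoxO proteins and is abundant in oligodendrocytes. It stood at 8.95 in KO and 10.2 in heterozygous cells, with a difference of -1.37 (SD 0.94, 21 of 22 probe sets lower). The oligodendrocyte lineage markers described above shifted the same way, by a median of -1.11, and their part in the Sirt2 value was not tested.

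By role, these partners differed in small amounts. The 14 evaluated kinases had a median of 0.12. Below 0 were 6 of them, beside 65.2% of all evaluated genes. Above 0 were 8, among them the stress kinase Mapk8 at 0.42 (SD 1.22). The 7 genes of 14-3-3 proteins, which hold phosphorylated FoxO in the cytoplasm, had a median of -0.03 and ran from -0.33 to 0.21. The 3 of nuclear transport had a median of -0.08 and the 4 of ubiquitin control -0.04. Among 10 genes of acetylation, 8 were below 0, beside 65.2% of all evaluated genes. The deacetylase Hdac3 was the highest of all 48 at 0.43 (SD 0.70, 7 of 18 lower).

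The cofactors were lowest as a role, with a median of -0.48 over 5 genes. Below 0 were 4 of them, beside 65.2% of all evaluated genes. Ppargc1a, a coactivator that works with FoxO1 on metabolic genes, stood at 7.53 in KO and 7.96 in heterozygous cells. Its difference was -0.74 (SD 0.41). All 12 of its probe sets were lower, beside 57.4% of all probe sets at or above the floor. Ppargc1a met the 1.5-fold rule, beside 4.90% of all evaluated genes in the lower direction. Beta-catenin (Ctnnb1) stood at -0.59 (SD 0.93, 13 of 19 lower) and Stat3 at -0.48 (SD 0.77, 25 of 34). Smad3 stood at -0.37 (SD 0.52, 8 of 11 lower) and Smad4 at 0.04 (SD 0.97, 7 of 16 lower). The part of the oligodendrocyte lineage shift in these values was not tested.

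**Figure D3:**
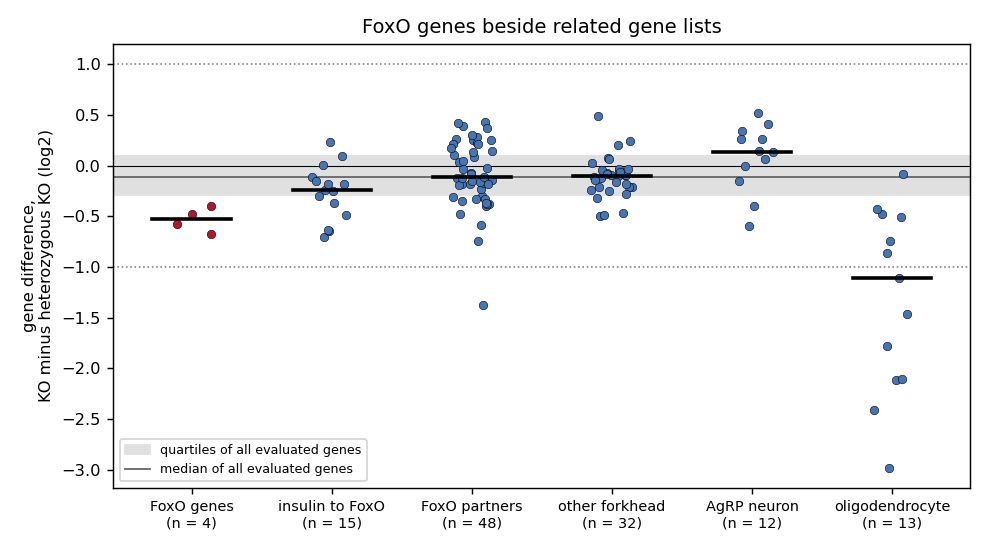
Gene differences (KO minus heterozygous KO, log2) of the 4 FoxO genes and of related lists and marker lists, 1 point per evaluated gene with the list median as a bar, the quartiles of all evaluated genes in grey and the 2-fold lines dotted. The FoxO genes lie between -0.68 and -0.39, under the lower quartile of all genes at -0.29, and the oligodendrocyte list has the lowest median at -1.11.

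The 3 evaluated genes nearest to Foxo1 in the pair of levels, by Euclidean distance over the 2 arrays, were Ecsit, Pigv and Atg2b, but their own differences of -0.63, -0.76 and -0.20 were not that of Foxo1 (-0.48). Such levels depend on the probes of each gene, and 116 genes lay within 0.1 of Foxo1, so this nearness is no likeness of expression.

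The family values were recomputed with other floors, summaries and scalings. Over 9 other settings Foxo1 ran from -0.71 to -0.33, Foxo3 from -0.74 to -0.56 and Foxo6 from -0.50 to -0.27. Foxo4 ran from -0.58 to 0.06 and changed sign with the floor at the 75th percentile.

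**Figure D4:**
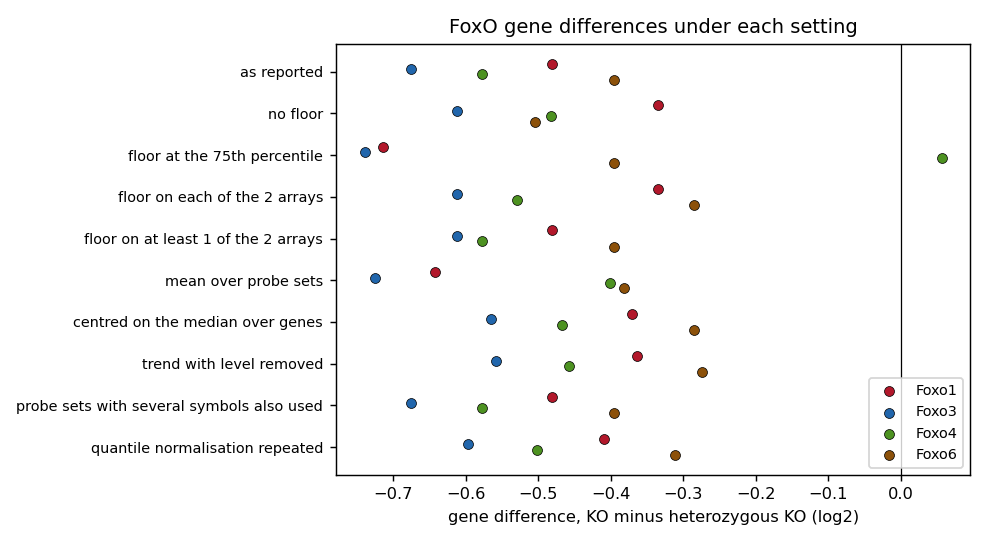
Difference of each FoxO gene (KO minus heterozygous KO, log2) as reported and under 9 other settings of the floor, the summary, the centring and the scaling. Every point is below 0 except Foxo4 with the floor at the 75th percentile, at 0.06.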

How the data were processed

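The deposited table holds 1 log2 value per probe set and array; per the submitters' processing notes the authors used RMA (background correction, quantile normalisation and summary per probe set) and Partek, with no versions given, and the log2 scale was taken from the values (2.53 to 14.1). Neither the build nor the annotation release is given in the sources used here. Quantile normalisation hides a change in total RNA. Probe sets were named from the platform annotation where it gave 1 symbol (318760 probe sets, 22296 symbols). A probe set was used if its 2-array mean reached 5.86, which is the median of such means over the whole array, and a gene value was the median over at least 3 such probe sets. Of the 4 members all were evaluated, on 39 of their 46 probe sets.

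Named are the members, list members past the 2-fold rule, the highest and lowest member of a list, and the 3 genes nearest to Foxo1. Akt1, Akt2, Mapk8, Stat3, Ctnnb1, Smad3, Smad4 and those past the 1.5-fold rule were named after their values were seen. The members and lists were chosen with earlier results of these data known. In the lists, 2 evaluated genes carried older symbols. Alternatives were other floors, the mean over probe sets, centring, removal of the trend with level, repeated quantile normalisation, probe sets with several symbols, each probe set left out, and for counts other rules on fold, agreement and number of probe sets. No test was made, and having so few arrays limits the precision. The summary step was checked on simulated data whose set differences were all larger than the 2-fold rule. It was not checked for differences as small as those of the FoxO genes. Python 3.11.15, numpy 2.4.6, pandas 2.3.3 and matplotlib 3.10.9 were used.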

Additional observations from a re-analysis of the deposited data

How the results depend on the processing

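No paired analysis was possible because each genotype had 1 array. A difference was taken as moved when it shifted by at least its SD over probe sets, and a count when it shifted by more than 1.5 times. Foxo1, Foxo3 and Foxo6 stayed below 0 and within that SD under each of 9 settings and with each of their probe sets left out in turn (Foxo1 -0.63 to -0.33, Foxo3 -0.74 to -0.61, Foxo6 -0.50 to -0.29). The SD was larger than the difference itself for Foxo1 and Foxo3, so a shift to 0 would have stayed within it. All 8 Foxo1 probe sets were lower, so settings that only dropped some of them or took their mean could not change its sign. Leaving 1 out could not change the sign of any member, so it is no check of direction. Lower were 8 of 8 probe sets in Foxo1, 10 of 12 in Foxo3, 6 of 9 in Foxo4 and 9 of 10 in Foxo6. Foxo4 ran from -0.60 to -0.53 with 1 probe set left out and was 0.056 under a 75th-percentile floor, where 4 of its probe sets were used. With that floor 16 of 20 family probe sets were lower. With the floor on each array 231 genes were past 2-fold, against 374 as reported, and with a 1.5-fold rule 1360. The 1.5-fold rule took 2 partner genes and 3 insulin pathway genes in place of 1 and 0. With the floor on at least 1 array, 1 other forkhead gene was past 2-fold, Foxc2 at -1.04 over 3 probe sets (named after its value was seen). With the floor on the mean Foxc2 had too few probe sets to be evaluated. To reach 3 it took in at least 1 that passed through the heterozygous array alone, whose direction followed from the filter. Centring on the median over genes moved the split of calls from 186 lower and 188 higher to 127 and 270, removing the trend with level to 129 and 267, and repeating the quantile normalisation to 142 and 248. Probe sets with several symbols held 0 of the members, so that setting repeated the reported member values.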
